A study of Mus musculus with 6 samples.

Results

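The Hoxa genes of paralog groups 2 to 10 were examined in mouse motor neuron progenitors. The members are Hoxa2, Hoxa3, Hoxa4, Hoxa5, Hoxa6, Hoxa7, Hoxa9 and Hoxa10, taken by name in chromosomal order, and they are 8 of the 55400 genes measured. All 8 were found in the deposited table. Levels are given as FPKM, which divides each count by the gene's exonic length and the library's total. The filter kept genes averaging 1 FPKM or more over the 6 libraries, and 5 members passed it; Hoxa6, Hoxa9 and Hoxa10 did not.

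Polyadenylated RNA was sequenced from 6 libraries of progenitors made in vitro from C57BL/6 embryonic stem cells, 3 labelled Setd5sh and 3 labelled control. Both groups carry the genotype label WT and were harvested on day 4, after all-trans retinoic acid at 1 µM and the Sonic hedgehog agonist SAG at 0.5 µM from day 2. Both were described as given doxycycline at 1 µg/mL for 36 h, and the labels do not say what hairpin, if any, control cells carried. The stem cells had been kept on mouse embryonic fibroblasts before embryoid bodies of 500 cells were formed, and whether replicates were separate cultures is not in the labels.

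Hox genes encode homeodomain transcription factors that lie in 4 clusters in mammals. Genes at one end of a cluster, the anterior paralog groups, are active towards the hindbrain, and genes at the other end are active progressively further down the trunk. Retinoic acid is known to switch on the anterior groups in differentiating stem cells, while Polycomb proteins keep the posterior groups silent. In the ventral spinal cord the Hox proteins give motor neurons their columnar and pool identities.

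All 8 genes lie on the minus strand of chromosome 6 in the mm10 build. Hoxa2 spans 52162417 to 52164831, Hoxa3 spans 52169062 to 52213336, Hoxa4 spans 52189671 to 52191753 and Hoxa5 spans 52201754 to 52204587. Further along, Hoxa6 spans 52206288 to 52208722, Hoxa7 spans 52214491 to 52221854, Hoxa9 spans 52223100 to 52231089 and Hoxa10 spans 52231197 to 52240854. The annotated interval of Hoxa3 is 44.3 kb long and runs across Hoxa4, Hoxa5 and Hoxa6, because its farthest annotated start lies beyond Hoxa6.

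The sequences around the starts of Hoxa5 and Hoxa6 are shown because they stand on either side of the step from the highest member to one under 1 FPKM. Each window holds 250 bases before and 50 bases after the RefSeq start in GRCm38.p6, on the minus strand, 5′ to 3′. Capitals mark matches on either strand to any of 6 motifs. The general promoter motifs were the box spelled CCAAT, the GC box spelled GGGCGG, whose matches may overlap, and the TATA box spelled TATAAA. The others were the half-site of the retinoic acid receptors spelled AGGTCA, a motif of Hox and Pbx proteins spelled TGATNNAT, and a motif of Cdx proteins spelled TTTATGG.
Hoxa5, chr6:52204538-52204837: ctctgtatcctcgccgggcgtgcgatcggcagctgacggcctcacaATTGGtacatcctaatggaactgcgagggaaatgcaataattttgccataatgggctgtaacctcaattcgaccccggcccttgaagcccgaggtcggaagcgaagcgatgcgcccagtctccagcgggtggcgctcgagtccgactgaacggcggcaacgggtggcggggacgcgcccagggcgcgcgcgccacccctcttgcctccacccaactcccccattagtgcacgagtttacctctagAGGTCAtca
Hoxa6, chr6:52208623-52208922: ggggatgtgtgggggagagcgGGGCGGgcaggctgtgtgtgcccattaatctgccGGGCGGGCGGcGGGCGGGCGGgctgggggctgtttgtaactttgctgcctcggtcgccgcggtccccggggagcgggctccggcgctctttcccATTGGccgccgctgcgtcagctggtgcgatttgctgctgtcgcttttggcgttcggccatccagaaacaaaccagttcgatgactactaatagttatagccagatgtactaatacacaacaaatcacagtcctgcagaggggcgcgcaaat
The Hoxa5 window held 1 CCAAT box and 1 AGGTCA half-site, which began 41 bases after the start. The Hoxa6 window held 1 CCAAT box and 5 GC box matches. Both windows were rich in CpG, with 29 in Hoxa5 and 26 in Hoxa6, against a median of 7 over all 32851 windows of the RefSeq table.

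The table matched 7 of the 8 members by symbol, all but Hoxa4, with a pair of windows for Hoxa10. A CCAAT box was found in 4 of these 7 genes and in 37.4% of all windows, a GC box in 3 of 7 and in 35.7% of all windows. AGGTCA was found in Hoxa5 alone among the 7 and in 16.3% of all windows, TGATNNAT in Hoxa2 alone and in 8.85%, TATAAA in Hoxa10 alone and in 13.6%, and TTTATGG in 0 of 7 and in 2.75%. CpG counts went from 4 in the Hoxa9 window and 9 in those of Hoxa2 and Hoxa7 up to 29 in Hoxa5, so the members did not share one base composition.

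Hox genes are alike in the homeobox, the part that encodes the DNA-binding homeodomain. The sources used here give neither read length nor the treatment of reads with several matches, so reads that match several Hox genes are an uncertain part of the counts, above all where a member has few.

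Total counts were 20726820, 27660851 and 19639303 in Setd5sh replicates 1, 2 and 3, and 32046466, 27153918 and 19871993 in control replicates 1, 2 and 3. Setd5 itself stood at 14.4, 13.5 and 12.9 FPKM in the Setd5sh libraries, against 22.2, 18.8 and 16.7 FPKM in the control libraries. The groups did not overlap, but the log2 fold change of -0.51 (SE 0.16) did not pass edgeR's test after adjustment (unadjusted p = 0.0143, adjusted p = 0.995). Control replicate 1 stood apart, with a chi-square per degree of freedom of 140 to 235 against the other libraries, where pairs of the others gave 8.56 to 73, so member values without it are given as well. No 2 libraries were alike within sampling noise.

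Olig2, the factor that defines motor neuron progenitors, ranged over 75.7 to 116 FPKM in the Setd5sh libraries and 65.6 to 78.7 FPKM in the control libraries. The 8 progenitor markers summed to 328 to 378 FPKM in Setd5sh and 288 to 323 FPKM in control, without overlap. The markers did not all go one way. Their log2 fold changes lay above 0 for 5, with Neurog2 at 0.638, Olig1 at 0.547, Nkx6-1 at 0.384, Olig2 at 0.339 and Nkx6-2 at 0.024. They lay below 0 for 3, with Sox1 at -0.175, Sox2 at -0.018 and Pax6 at -0.008. Neurog2 and Olig1 had an unadjusted edgeR p under 0.05 (0.00978 and 0.0329), as did 0.615% of all tested genes in that direction. Of all tested genes 42.6% lay above 0, and 0 of the 8 markers passed the test after adjustment. The 8 neural crest and dorsal markers summed to 5.43 to 7.42 FPKM in Setd5sh and 3.81 to 4.51 FPKM in control, but that separation came from Msx1, at 5.13, 3.21 and 5.1 FPKM in Setd5sh and 1.95, 1.52 and 2.55 FPKM in control. The other 7 overlapped, with sums of 1.72 to 2.32 FPKM in Setd5sh and 1.9 to 2.29 FPKM in control. Sums of the other marker lists overlapped between the groups. They were 9.11 to 62.1 FPKM in Setd5sh and 19.0 to 83.2 FPKM in control for 7 pluripotency genes, 39.2 to 42.2 FPKM and 35.1 to 42.6 FPKM for 10 genes of feeder fibroblasts, and 10.2 to 19.5 FPKM and 14.1 to 24.6 FPKM for 7 genes of postmitotic motor neurons. Mesodermal genes (9 measured) summed to 6.86 to 13.02 FPKM in Setd5sh and 8.69 to 15.5 FPKM in control, endodermal genes (7) to 50.6 to 63.1 FPKM and 47.0 to 58.5 FPKM, and blood and endothelial genes (6) to 0.11 to 0.57 FPKM and 0.15 to 0.63 FPKM. The presomitic gene Msgn1 and the leukocyte gene Ptprc had no count in any library, and of the feeder list Postn and Lum stayed under 0.1 FPKM. Most of the feeder sum was Fn1, at 29.5 to 33.1 FPKM in Setd5sh and 29.3 to 33.7 FPKM in control. Col1a2, a collagen gene of that list, stood at 5.28, 4.68 and 7.83 FPKM in Setd5sh and 3.35, 4.08 and 6.47 FPKM in control, higher in Setd5sh in all 3 replicate numbers and highest in replicate 3 of each group, as Hoxa4 was. Col1a1 of the same list stood at 1.05, 2.45 and 0.61 FPKM in Setd5sh and 1.2, 2.76 and 1.4 FPKM in control. It was lower in Setd5sh in all 3 replicate numbers. Of the 3 feeder genes tested, 1 log2 fold change lay above 0 and 2 below. The part of these markers in the Hoxa values was not tested. In bulk libraries, fewer cells of a type and less RNA per cell cannot be told apart.

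The cluster was expressed up to Hoxa5 and close to silent from Hoxa9 on. In each of the 6 libraries the order by FPKM was Hoxa5, Hoxa4, Hoxa2, Hoxa3, Hoxa7, Hoxa6, Hoxa9 and Hoxa10, from high to low. Hoxa4 and Hoxa5 overlapped over libraries within each group, as did Hoxa6 and Hoxa7 on the control side, where the highest Hoxa6 value of 0.86 FPKM lay above the lowest Hoxa7 value of 0.71 FPKM. Hoxa2 and Hoxa3 did not overlap in either group, and neither did Hoxa6 and Hoxa7 in Setd5sh.

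**Figure D1:**
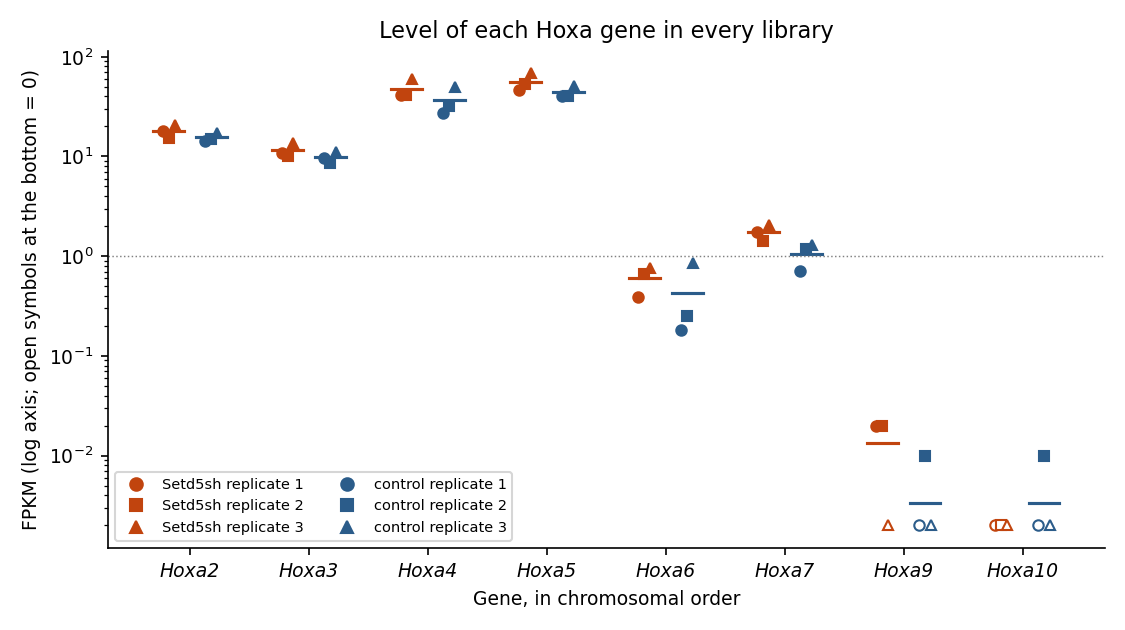
FPKM (log axis) of the 8 Hoxa genes in chromosomal order, one symbol per library, with short bars at the mean of each group of 3 and the dotted line at the expression minimum of 1 FPKM. Hoxa2 to Hoxa5 stand between 8.6 and 68.2 FPKM, Hoxa6 and Hoxa7 between 0.18 and 2.04 FPKM, and Hoxa9 and Hoxa10 at or below 0.02 FPKM.

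Hoxa2, which specifies the second pharyngeal arch and patterns the anterior hindbrain, stood at 17.9, 15.4 and 20.7 FPKM in Setd5sh replicates 1, 2 and 3, against 14.4, 14.9 and 17.2 FPKM in control replicates 1, 2 and 3. The groups overlapped, since Setd5sh replicate 2 lay below control replicate 3. Setd5sh libraries averaged 18 ± 2.69 FPKM and control libraries 15.5 ± 1.47 FPKM (SD, n = 3 each, as for the means that follow), and the edgeR log2 fold change was 0.21 (SE 0.18).

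Hoxa3, which is needed for the thymus and parathyroid, stood at 10.8, 10.2 and 13.6 FPKM in the Setd5sh libraries and at 9.63, 8.6 and 11.1 FPKM in the control libraries. Control replicate 3 lay above Setd5sh replicates 1 and 2, so the groups overlapped. The means were 11.6 ± 1.81 FPKM and 9.79 ± 1.28 FPKM, in Setd5sh and in control, with a log2 fold change of 0.23 (SE 0.18).

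Hoxa4, which patterns the neck region of the axial skeleton, stood at 41.4, 40.9 and 59.7 FPKM in the Setd5sh libraries, against 27.1, 32.4 and 50.2 FPKM in the control libraries. Within each group replicate 3 was the highest, and the control library of that number exceeded the other Setd5sh libraries. Setd5sh libraries averaged 47.4 ± 10.7 FPKM and control libraries 36.6 ± 12.1 FPKM, and the log2 fold change was 0.37 (SE 0.26).

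Hoxa5, which together with Hoxc5 is required for the phrenic motor neurons that drive the diaphragm, was the highest of the 8 members at 46.9, 52.8 and 68.2 FPKM in Setd5sh, against 40.1, 40.8 and 50.7 FPKM in control. Its groups overlapped through Setd5sh replicate 1, which lay below control replicate 3. Setd5sh libraries averaged 55.97 ± 10.99 FPKM and control libraries 43.9 ± 5.93 FPKM, with a log2 fold change of 0.34 (SE 0.18).

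The level dropped sharply at the next gene. Hoxa6, which acts at the transition from neck to thorax, had 7, 16 and 13 counts in the Setd5sh libraries and 5, 6 and 15 counts in the control libraries. These counts correspond to 0.39, 0.66 and 0.76 FPKM in Setd5sh and to 0.18, 0.25 and 0.86 FPKM in control, with the highest library in the control group. Summed over a group, Hoxa6 stood at 36 counts in Setd5sh, with an exact 95% Poisson interval of 25.2 to 49.8. In control it stood at 26 counts, with an interval of 17.0 to 38.1. Scaled by the summed depth of each group and by length, these were 0.605 FPKM (0.424 to 0.838) in Setd5sh and 0.376 FPKM (0.246 to 0.551) in control. The intervals cover counting error only. The fit with no filter gave a log2 fold change of 0.56 (SE 0.73), and this value was 0.17 when control replicate 1 was left out, 0.28 when control replicate 2 was, 0.36 when Setd5sh replicate 3 was and 1.54 when control replicate 3 was, so no difference was detectable at this depth.

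Hoxa7, a gene of the thoracic region, was low but above Hoxa6, at 1.74, 1.43 and 2.04 FPKM in Setd5sh (104, 114 and 115 counts) and 0.71, 1.19 and 1.28 FPKM in control (65, 93 and 73 counts). It was the member whose groups did not overlap, since each Setd5sh library lay above each control library. Setd5sh libraries averaged 1.74 ± 0.305 FPKM and control libraries 1.06 ± 0.306 FPKM, and the log2 fold change was 0.72 (SE 0.32). The exact two-sided permutation test on its log2 level (log2 CPM with a prior count of 2) gave p = 0.1, the smallest that 3 against 3 libraries allow.

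Hoxa9 and Hoxa10, which pattern the lower trunk and the lumbar region, were at the edge of detection. Hoxa9 had 2, 3 and 0 counts in Setd5sh and 0, 2 and 0 counts in control. Hoxa10 had 0 counts in each Setd5sh library and 1 count in control, in replicate 2. A count of 0 allows up to 3 counts per library, or 0.0168 to 0.0274 FPKM for Hoxa9 and 0.0286 to 0.0467 FPKM for Hoxa10 over the 6 depths. No fold is given for either gene.

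The drop between Hoxa5 and Hoxa6 can be given as a ratio of levels per length. It was 121-fold, 79.8-fold and 90.1-fold in Setd5sh replicates 1, 2 and 3, and 225-fold, 161-fold and 58.7-fold in control replicates 1, 2 and 3. With so few Hoxa6 counts the exact 95% intervals were wide, at 58.8 to 302 in Setd5sh replicate 1 and 96.1 to 692 in control replicate 1. The lowest bound in any library was 35.5-fold, in control replicate 3, and the ratios overlapped between the groups. Hoxa5 exceeded Hoxa7, the next gene beyond Hoxa6, by 26.9-fold to 36.9-fold in Setd5sh and by 34.3-fold to 56.9-fold in control.

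Beyond Hoxa10, the table had 0 counts in the 6 libraries for Hoxa11, which with its neighbour Hoxa13 patterns the limb and the caudal end, and 2 counts for Hoxa13, both in Setd5sh replicate 2.

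Transcripts from the opposite strand lie among the anterior members. Hotairm1, a long non-coding RNA of the cluster that is known to follow retinoic acid, stood at 35.6, 44.3 and 23.6 FPKM in the Setd5sh libraries, against 47.95, 45.3 and 30.1 FPKM in the control libraries. Its groups overlapped, and the log2 fold change was -0.27 (SE 0.27). Hoxaas2 had a log2 fold change of -0.29 (SE 0.25), Hoxaas3 one of -0.21 (SE 0.28), 5730596B20Rik one of -0.34 (SE 0.34) and Gm29430 one of -0.74 (SE 0.54). None of these 5 passed the test, and their estimates lay below 0 while those of the 5 tested members lay above 0. Control replicate 1 was the highest library for each of the 5, for example at 2.59 FPKM of Gm29430, where the other libraries stood at 0.69 to 1.01 FPKM. In replicate number 2 the Setd5sh minus control difference in log2 level was -0.01 for Hotairm1, 0.08 for Hoxaas2, -0.03 for Hoxaas3, 0.05 for 5730596B20Rik and 0.21 for Gm29430, and in number 3 it was -0.36, 0.09, 0.14, 0.28 and 0.27 for the same genes, so outside replicate number 1 only Hotairm1 was lower in both pairs.

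**Figure D2:**
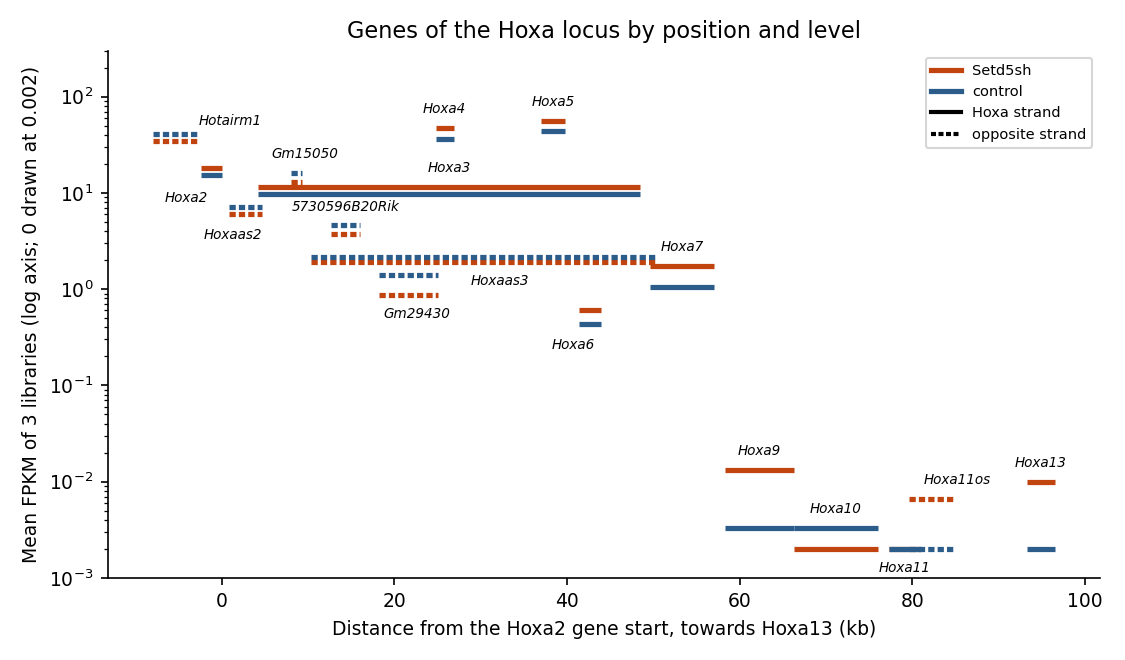
Genes of the Hoxa locus around and beyond Hoxa2 with a span of at least 1 kb and a count in some library, with Hoxa11 added (0 is drawn at 0.002), drawn as their annotated span in kb from the Hoxa2 start; the height is the mean FPKM of 3 libraries (log axis). Solid bars lie on the strand of the Hoxa genes and broken bars on the opposite strand; Hoxa4 and Hoxa5 stand above 36 FPKM, while Hoxa6, inside the span of Hoxa3, averages 0.603 FPKM in Setd5sh and 0.43 FPKM in control.

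The exons of 5 members overlap those of other annotated genes. Hoxa3 keeps 72.9% of its exonic bases free of other genes, Hoxa7 79.6%, Hoxa4 84%, Hoxa2 85% and Hoxa9 98.5%, whereas Hoxa5, Hoxa6 and Hoxa10 are free throughout. Hoxa7 shares 586 bases, or 20.4% of its exons, with Hoxaas3 on the other strand. The labels describe no step that marks strand, so in shared bases a read of one cannot be told from a read of the other. As a check of the length alone, each gene's whole count was divided by its free exonic length. Reads over free exon were not counted apart, so reads in shared bases were not removed by this step. Per kilobase of free exon in this sense, Hoxa4 reached 56.4 ± 12.8 in Setd5sh and 43.5 ± 14.4 in control. Hoxa5, free throughout, kept its values. On that scale Hoxa4 was above Hoxa5 in Setd5sh replicates 1 and 3 and control replicate 3 and below it in the other libraries, so the order of this pair depended on the length used.

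The question addressed by the comparison is whether targeting Setd5, a SET domain protein, shifts the expression of these positional genes. No member changed by the test. edgeR's quasi-likelihood test over 12199 genes, adjusted by the Benjamini-Hochberg method, called 0 of the 5 tested members, and it called 0% of all genes; 149 genes had an unadjusted p under 0.05, and DESeq2 and limma on the same genes called 0 as well. An unadjusted p under 0.05 was found for 0 of the 5 members and for 1.22% of all tested genes in this fit, which does not use the replicate numbers. The unadjusted edgeR p was 0.280 for Hoxa2, 0.239 for Hoxa3, 0.197 for Hoxa4, 0.102 for Hoxa5 and 0.0541 for Hoxa7, and the adjusted p was 0.995 for each. Hoxa7 alone of the 5 had an unadjusted p under 0.05 in DESeq2 without a block (0.0395), as did 221 of the 12199 genes. The same held in edgeR with no filter (0.0437), where 1381 of 29462 genes had such a p. Libraries that share replicate number 1 or 3 correlated only weakly in their deviations from group means (0.185 and 0.127). Fits blocked on the number thus rest on an uncertain pairing. With the replicate number as a block, edgeR gave an unadjusted p under 0.05 for 3 of the 5 members and 2.69% of all tested genes. In that edgeR fit the unadjusted p was 0.0355 for Hoxa4, 0.04998 for Hoxa5 and 0.0403 for Hoxa7, and the adjusted p was 0.938 for each. With trends in GC content and length also taken out, it was again 3 of 5, against 6.94% of all tested genes, with edgeR p of 0.0111, 0.0179 and 0.0227 for the same genes and adjusted p of 0.686, 0.693 and 0.704. DESeq2 with the block gave 0 of 5 members and 2.29% of all tested genes.

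The 5 estimates lay on one side. All 5 log2 fold changes were above 0, as were 42.6% of all tested genes, and their median was 0.34, against -0.04 over all tested genes. Hoxa7 was the 1 member of 5 with each Setd5sh library above each control library, and 2.63% of all tested genes had that pattern. Every tested member was higher in Setd5sh in all 3 pairs of libraries with the same replicate number, a pattern seen in 12.8% of tested genes. The members move together from library to library, so these 5 are not independent observations.

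**Figure D3:**
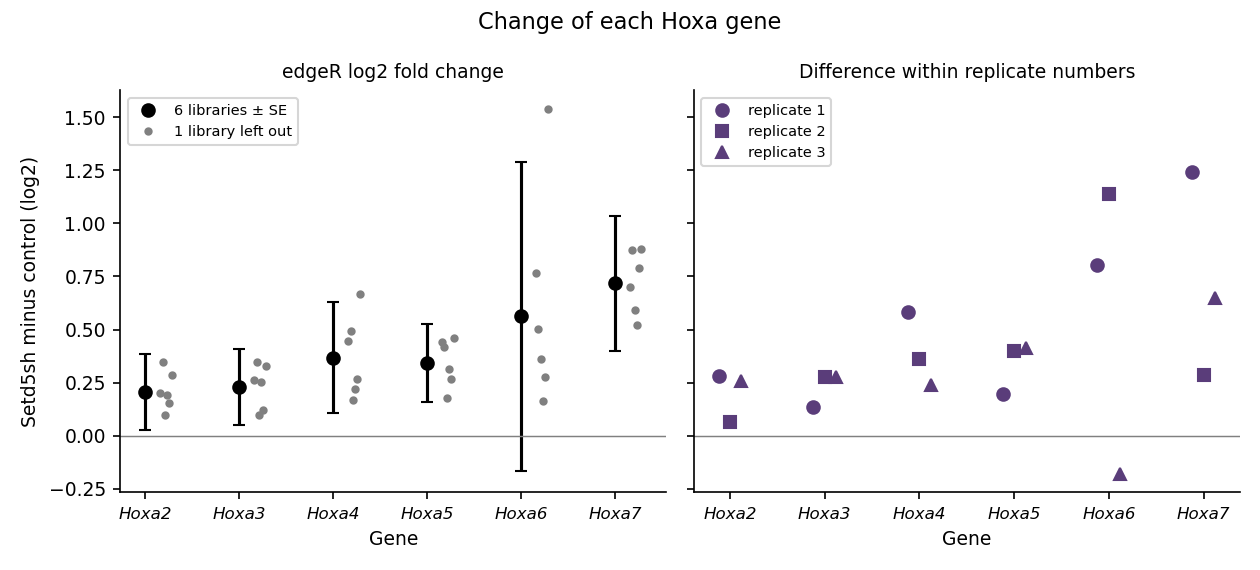
Setd5sh minus control on the log2 scale for the members with more than 10 counts in all. Left, the edgeR log2 fold change with its SE (black) and the same value with 1 library left out (grey); right, the difference within each replicate number. All left-out values lie above 0, and within replicate numbers the only value below 0 is that of Hoxa6 in replicate 3, at -0.18.

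Within replicate numbers 1, 2 and 3 the difference in log2 level was 0.28, 0.07 and 0.26 for Hoxa2 and 0.14, 0.27 and 0.28 for Hoxa3. For Hoxa4 it was 0.58, 0.36 and 0.24, and for Hoxa5 it was 0.19, 0.40 and 0.41. Hoxa7 had the widest range, with 1.24, 0.29 and 0.65. The ranking of the members thus differed between pairs, and among these 5 Hoxa7 led in pairs 1 and 3 while Hoxa5 led in pair 2.

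Which libraries set the estimates can be read from the deviation of each library from a gene's mean over the 6, taken as the median over the 5 tested members. This deviation was 0.06, -0.01 and 0.47 on the log2 scale in Setd5sh replicates 1, 2 and 3, and -0.24, -0.32 and 0.06 in control replicates 1, 2 and 3. In each group the third replicate was the highest and also had the lowest total count of its group. Without Setd5sh replicate 3 the log2 fold change was 0.10 for Hoxa2, 0.10 for Hoxa3, 0.17 for Hoxa4, 0.18 for Hoxa5 and 0.59 for Hoxa7. Without control replicate 1, the library that stood apart, it was 0.19, 0.25, 0.22, 0.31 and 0.52 for the same genes in that order. Other single libraries moved the estimates as well. Hoxa2 stood at 0.35 and Hoxa3 at 0.35 without Setd5sh replicate 2, and Hoxa3 at 0.12 without control replicate 2. Without control replicate 3, Hoxa4 stood at 0.67, Hoxa5 at 0.46 and Hoxa7 at 0.88.

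The estimates were larger towards the posterior end. From Hoxa2 to Hoxa7 they were 0.21, 0.23, 0.37, 0.34 and 0.72, a Spearman correlation of 0.90 with the paralog number over 5 genes, given as a description because the genes share the same libraries. It stood at 0.90 without any single library, at 0.80 in a fit that took out trends with GC content and length and blocked on replicate number, and at 0.50, 0.70 and 0.70 within replicate numbers 1, 2 and 3. The posterior end of this range is 1 gene, Hoxa7, which also has the lowest counts of the 5. In the Hoxb cluster the estimates were 0.28 for Hoxb2, 0.01 for Hoxb3, 0.05 for Hoxb4, 0.49 for Hoxb5, 0.65 for Hoxb6, 0.31 for Hoxb7, 0.64 for Hoxb8 and 1.05 for Hoxb9.

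Set beside its paralogs, the Hoxa cluster ended earlier than Hoxb. Hoxb5 exceeded Hoxb6 by 2.01-fold to 2.27-fold per length in Setd5sh and by 2.15-fold to 2.71-fold in control, whereas the lowest ratio of Hoxa5 to Hoxa6 in any library was 58.7-fold. Hoxc5 exceeded Hoxc6 by 59.9-fold to 98.2-fold in Setd5sh and by 79.2-fold to 312-fold in control, a drop at the same position as in Hoxa. This position was chosen after its values were seen, and the difference between clusters was not tested.

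Hoxb6 averaged 38.8 ± 2.25 FPKM in Setd5sh libraries and 24.8 ± 5.94 FPKM in control libraries, where Hoxa6 averaged 0.603 ± 0.191 FPKM and 0.43 ± 0.374 FPKM. Hoxb9 averaged 4.89 ± 2.44 FPKM in Setd5sh libraries and 2.37 ± 0.943 FPKM in control libraries, and Hoxa9 at most 0.02 FPKM in any library. Among the 9 tested Hoxb genes 0 passed, and Hoxb6, Hoxb8 and Hoxb9 had an unadjusted edgeR p under 0.05, a property of 0.615% of tested genes in that direction. In the other clusters the log2 fold change was 0.05 for Hoxc4, 0.34 for Hoxc5, -0.52 for Hoxd3 and 0.20 for Hoxd4, and none of these passed.

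**Figure D4:**
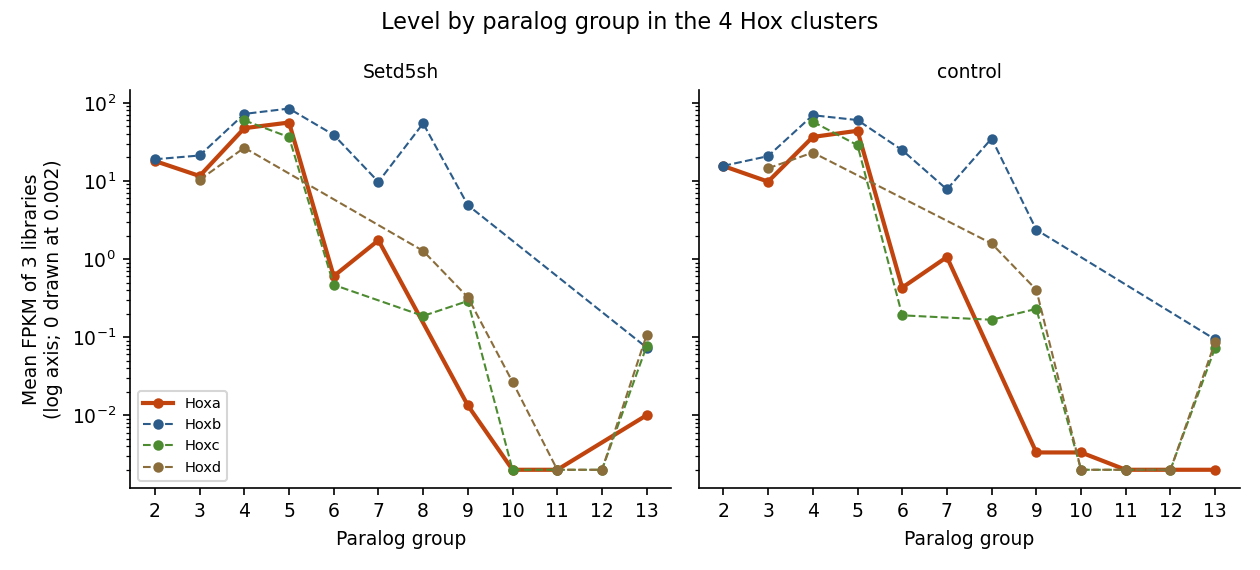
Mean FPKM of 3 libraries (log axis) against paralog group, from 2 on, in the Hoxa, Hoxb, Hoxc and Hoxd clusters, for Setd5sh (left) and control (right). Hoxa and Hoxc fall below 1 FPKM at paralog group 6 in both groups, while Hoxb stays above 2 FPKM up to group 9.

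The share of each paralog group that came from Hoxa differed with position. Hoxa2 made up 43.8% to 53.4% of the summed FPKM of group 2 in Setd5sh and 46.6% to 52.3% in control. Hoxa3 made up 27.0 ± 4.86% of group 3 in Setd5sh and 23.2 ± 7.9% in control, Hoxa4 made up 22.9 ± 3.9% of group 4 and 19.4 ± 4.91%, and Hoxa5 made up 31.6 ± 4.19% of group 5 and 33.8 ± 4.55%. In group 6 the share of Hoxa6 was 1.53 ± 0.546% in Setd5sh and 1.57 ± 1.08% in control. Hoxa7 made up 14% to 16.2% of group 7 in Setd5sh and 8.71% to 14.3% in control, so here too the groups overlapped.

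Proteins that act with or upstream of the Hoxa genes were examined as lists. Of the 9 tested TALE cofactors (the Pbx, Meis and Pknox genes, whose proteins bind DNA together with Hox proteins), 0 passed, with 5 estimates above 0, 4 below and a median of 0.03. Of 18 Polycomb, trithorax and boundary genes, among them Ezh2, Kmt2a and Ctcf, 0 passed, with 8 above 0, 10 below and a median of -0.03. Of 12 tested retinoid genes 0 passed and the median was 0.00, but Cyp26b1, which breaks down retinoic acid, averaged 27.8 ± 1.55 FPKM in Setd5sh libraries and 17.8 ± 2.62 FPKM in control libraries (log2 fold change 0.64, SE 0.15). For Cyp26b1 each Setd5sh library lay above each control library. Of 5 tested hindbrain regulators 0 passed, with a median of 0.08. Of 6 genes that induce caudal identity, 2 were tested, Cdx1 and Gdf11, and 0 passed. Cdx1 stood at 1.52, 1.43 and 0.87 FPKM in Setd5sh and 0.78, 2.23 and 0.83 FPKM in control. Gdf11 stood at 13.37, 13.51 and 14.28 FPKM in Setd5sh and 10.59, 13.09 and 12.38 FPKM in control. Of the untested genes, Cdx4 had no count, and Cdx2 stayed under 0.1 FPKM.

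Genes outside the cluster were ranked by how closely they followed the mean of the 5 tested members over the 6 libraries. The 5 closest were Heatr3, Zdhhc5, Eps15l1, Ube2l6 and Anapc16, with Pearson correlations of 0.993, 0.991, 0.988, 0.987 and 0.984. The 2 most opposed were Stx17 at -0.994 and Zfp512 at -0.991. Of the 12184 genes ranked, 294 reached 0.9. Among the paralogs, Hoxb9 stood at 0.969, Hoxb8 at 0.955 and Hoxc5 at 0.939, while Hoxb4 stood at -0.378 and Hoxd3 at -0.625.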

How the data were processed

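Per the labels' protocols, poly-T beads selected the mRNA from TRIzol extracts and random hexamers primed the cDNA. The authors deposited a raw count and an FPKM value per gene and library, with exonic lengths; per the submitters' processing notes the build was mm10 and the tools were DESeq2, HTSeq, SAMtools and HISAT2, without roles or versions; strand setting and annotation release are not stated there. The deposited FPKM equals the count scaled by exonic length and column total to within 0.005. Symbols and positions came from GENCODE M21 (99.53% of identifiers found), whose exonic lengths equal the deposited ones for 99% of them.

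The main test was edgeR 4.0.16 (quasi-likelihood, TMM scaling, Benjamini-Hochberg, threshold 0.05, two-sided) in R 4.3.3 on deposited counts of 12199 genes with a mean FPKM of at least 1; fold changes are Setd5sh minus control. Values for Hoxa6 come from 29462 genes with no filter. DESeq2 1.42.0 and limma 3.58.1 served as alternatives; scripts were tested on simulated data. P-values reflect the spread between these libraries alone, and part of it may be technical. Deviations from group means correlated at 0.185, 0.690 and 0.127 for libraries that share replicate number 1, 2 and 3. Each exceeds 0.1, the cut used here to treat the numbers as a pairing, since the labels are silent. Only number 2 stood clear of unmatched libraries. Setd5sh replicate 3 and control replicate 1 correlated at 0.191, above the values of numbers 1 and 3. Whether the numbers mark a true pairing is not known, and differences by pair and fits with a block rest on it. Members, lists and tests were chosen with earlier results of these data known. Named genes were the 8 members, Setd5, genes whose exons overlap a member, paralogs of the same groups, list members with an unadjusted p under 0.05 and the genes most and least like the cluster mean; other locus genes and markers were named after their values were seen. Some genes and sequences are not reported here.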

Additional observations from a re-analysis of the deposited data

How the results depend on the processing

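No alternative turned the direction of Hoxa2, Hoxa3, Hoxa4, Hoxa5, Hoxa6 or Hoxa7 or brought one past the threshold, and the lowest adjusted p over the alternatives was 0.566 (Hoxa4, Hoxa5 and Hoxa7). With 1 library left out, the log2 fold change ranged from 0.096 to 0.346 for Hoxa2, from 0.096 to 0.347 for Hoxa3, from 0.167 to 0.667 for Hoxa4, from 0.176 to 0.458 for Hoxa5, from 0.165 to 1.54 for Hoxa6 and from 0.52 to 0.878 for Hoxa7, and the median of the tested members from 0.167 to 0.458. Under other scalings, tools, filters and pseudocounts the median ranged from 0.267 to 0.403; Hoxa7 fell to 0.41 in limma on log2(FPKM + 1), where the pseudocount is as large as its level. With the replicate block in edgeR the median of the members was 0.333 and Hoxa7 stood at 0.733; the block changed no call after adjustment, although unadjusted p-values of Hoxa4, Hoxa5 and Hoxa7 were under 0.05 with it. Over all genes, 0 were called in edgeR, 73 with no filter (18 higher, 55 lower) and 2 in DESeq2 with the replicate block, an alternative added after the data were seen; no member was among them. The mean FPKM minimum of 5 left Hoxa7 out. With the whole count divided by free exonic length, levels of Hoxa2 and Hoxa3 per kilobase were 21.2 and 15.9 in Setd5sh and 18.3 and 13.4 in control. That of Hoxa7 was 2.18 in Setd5sh.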
